A study of Mus musculus with 7 samples.

Results

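B lymphoid precursor genes are the 9 genes Cd79a, Cd79b, Vpreb1, Igll1, Pax5, Ebf1, Blnk, Rag1 and Il7r. They were taken by gene symbol from the array annotation, and 13 probe sets carry 1 of these symbols alone, out of 20380 probe sets and 12393 genes with 1 symbol. Their expression was read on 7 Affymetrix arrays, each of stromal cells of the bone lineage sorted from the marrow of OsxCre-mCherry;OcnCre-Topaz double transgenic mice. The Ocn+ group, sorted as Topaz cells marked through the osteocalcin promoter, had 3 arrays. The Osx+ group, sorted as mCherry cells marked through the osterix promoter, had 4 arrays. All 7 samples share the double transgenic genotype, an age of 4 to 6 weeks and sorting on day 6 after tamoxifen. The promoter of each transgene sets which cells are marked, and the labels say neither how arrays relate to animals nor whether animals were pooled. A p-value here therefore covers the spread between samples alone, and part of that spread may be technical.

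B cells arise in bone marrow among the stromal cells that the reporters mark. The transcription factor Ebf1 opens the B lineage program and Pax5 fixes it, the recombinase Rag1 cuts the immunoglobulin genes, and the interleukin 7 receptor chain Il7r carries the growth signal of precursors. Once a heavy chain is made, the surrogate light chain of Vpreb1 and Igll1 pairs with it, and the complex signals through Cd79a and Cd79b and the adaptor Blnk. Ebf1 is also known from marrow stromal and fat cell precursors, so its RNA is not particular to B cells. Vpreb1 and Igll1 are shut off before B cells mature, which makes them markers of precursors rather than mature B cells.

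No B lymphoid precursor gene passed the test between the Ocn+ and the Osx+ arrays, and the values of the groups overlapped for all of them but Il7r. Osx+ replicate 1 had the highest value of all 7 arrays for 6 of the 9 genes, where the share over all genes was 26.0%. These were Cd79a, Cd79b, Vpreb1, Igll1, Blnk and Rag1, and the same array had the lowest value for Ebf1. Il7r had a different pattern, with its highest value in Osx+ replicate 2. In limma, 0 of the 9 genes passed an adjusted p of 0.05, where the background over all genes was 0.00%, and 0 of the 9 had an unadjusted p under 0.05, where the background was 5.31%. The median difference of the 9 genes, Ocn+ minus Osx+, was -0.20 on the log2 scale, against 0.02 over all genes. It was 0.34 without Osx+ replicate 1, against 0.06 over all genes without that array. The values are log2 signals after RMA, and without detection calls it is not known whether the dimmest of them lie above background.

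The promoters of Cd79a, Vpreb1 and Igll1 are shown because these genes encode receptor parts that were highest in the same array, Osx+ replicate 1. Promoters came from the RefSeq table, in which 8 of the 9 genes had an entry and Cd79b had none. Each window holds the 250 bases before the gene's start in GRCm38.p6, 5′ to 3′ on the gene's strand. Capitals mark the Ets motif AGGAAGT, which is longer than the core of Ets sites, and the E-box CAGGTG. Both were searched on both strands, with no overlap between them.
Cd79a (chr7:24897247-24897496, plus strand): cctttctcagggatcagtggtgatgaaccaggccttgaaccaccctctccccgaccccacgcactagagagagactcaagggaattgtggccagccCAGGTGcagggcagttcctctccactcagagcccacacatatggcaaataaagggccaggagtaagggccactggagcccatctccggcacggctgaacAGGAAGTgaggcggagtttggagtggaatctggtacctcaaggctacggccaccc
Vpreb1 (chr16:16869256-16869505, minus strand): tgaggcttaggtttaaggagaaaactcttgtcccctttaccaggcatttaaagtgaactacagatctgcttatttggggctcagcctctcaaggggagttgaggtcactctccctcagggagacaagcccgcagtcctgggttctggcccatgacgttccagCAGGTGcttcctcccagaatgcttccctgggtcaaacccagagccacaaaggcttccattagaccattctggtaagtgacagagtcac
Igll1 (chr16:16863986-16864235, minus strand): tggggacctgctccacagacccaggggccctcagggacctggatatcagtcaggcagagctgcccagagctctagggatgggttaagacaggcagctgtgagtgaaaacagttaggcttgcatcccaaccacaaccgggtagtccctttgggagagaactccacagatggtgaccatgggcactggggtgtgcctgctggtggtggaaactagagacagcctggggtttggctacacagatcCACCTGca
The Cd79a promoter is a textbook target of Ebf1, Pax5 and Ets factors. It held 1 AGGAAGT match 55 bases before the start and 1 E-box 154 bases before it. The E-box letters lay 88 bases before the start of Vpreb1 and 8 bases before that of Igll1, and neither window held AGGAAGT. The E-box stood in 17.2% of 32851 promoter windows of the same length and AGGAAGT in 7.69%. The EBF palindrome TCCCNNGGGA stood in 0.779% of the windows and in 0 of the 3 shown. The motifs were chosen with the sequences in view, and a match is no evidence of binding. Only these exact letters were searched, so a missing match is no evidence that a site is absent. Vpreb1 and Igll1 are next to each other among the protein-coding genes of chromosome 16.

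Cd79a and Cd79b encode the signalling pair of the pre-B and B cell receptor, known as Ig alpha and Ig beta. The log2 signal of Cd79a was 7.51, 6.91 and 6.24 in Ocn+ replicates 1 to 3, against 8.81, 6.43, 6.52 and 6.70 in Osx+ replicates 1 to 4. Osx+ replicate 1 was the highest and Ocn+ replicate 1 the next, and the other Osx+ arrays lay within the Ocn+ range. Cd79b stood at 8.45, 7.20 and 6.76 in Ocn+ cells, against 10.30, 7.80, 6.23 and 6.79 in Osx+ cells. The same 2 arrays led, and Osx+ replicate 1 exceeded the mean of the other Osx+ arrays by 3.36 for Cd79b and by 2.26 for Cd79a. The group difference was -0.23 (SE 0.63) for Cd79a and -0.31 (SE 0.97) for Cd79b, both with a limma adjusted p of 0.999. The 95% interval of the Cd79b difference ran from -2.58 to 1.96, so these arrays leave room for a difference of several fold either way. Without Osx+ replicate 1 the differences were 0.34 (SE 0.33) and 0.53 (SE 0.57), opposite in sign to those with it.

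**Figure D1:**
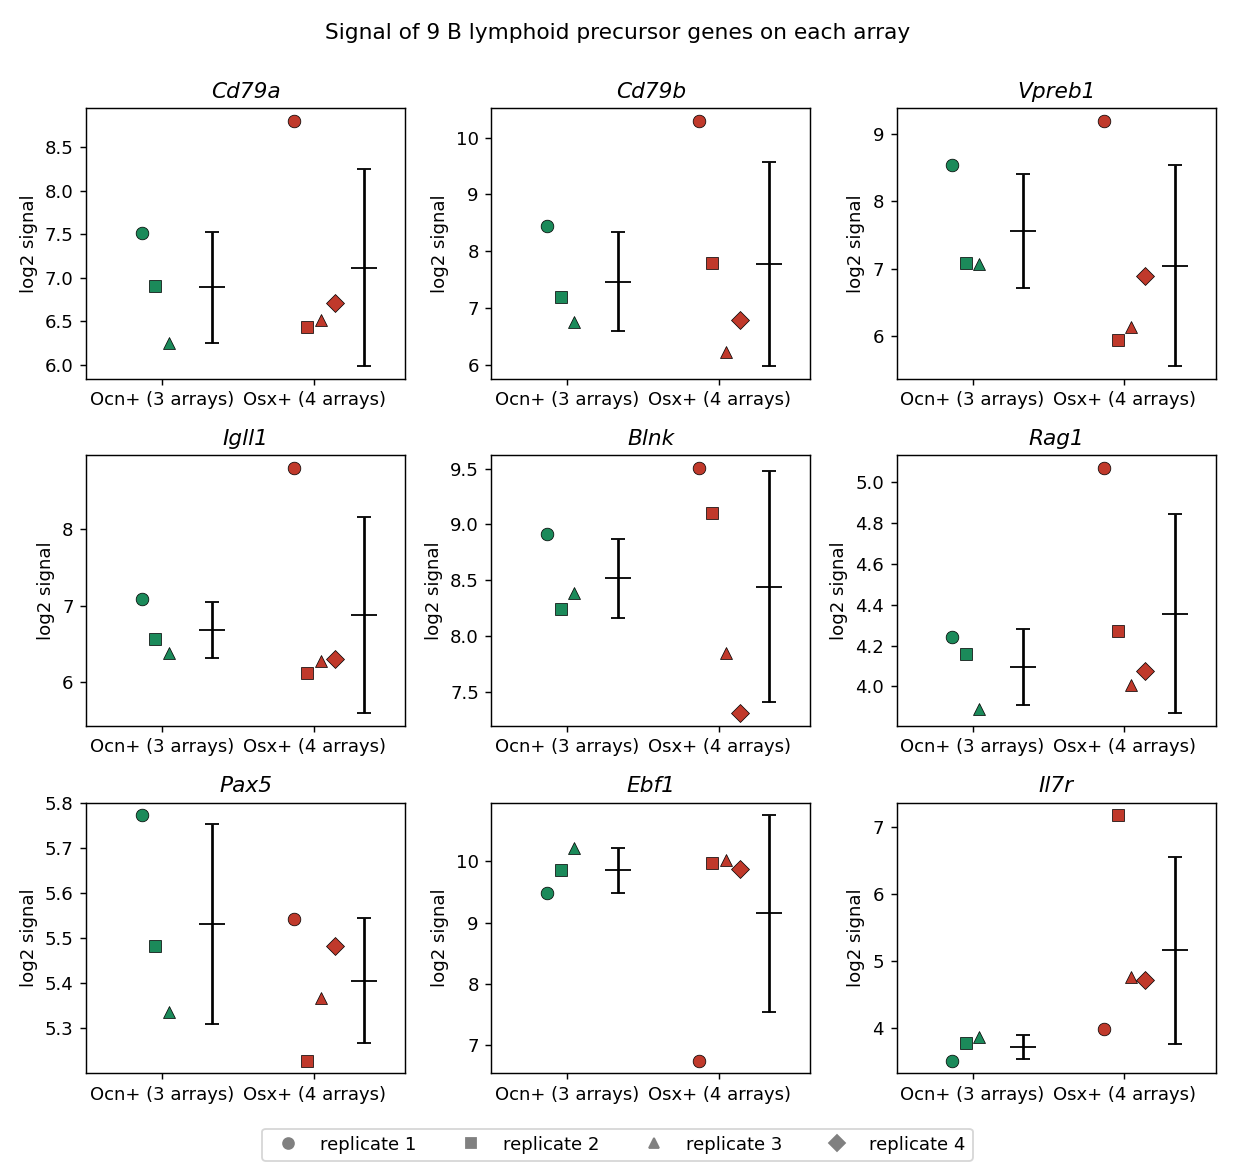
Each panel shows the log2 signal of 1 gene on each array, Ocn+ arrays on the left in green and Osx+ arrays on the right in red, with a marker shape for each replicate number. The black dash and bar give the group mean and SD (n = 3 Ocn+, n = 4 Osx+). Osx+ replicate 1 (red circle) is highest in Cd79a, Cd79b, Vpreb1, Igll1, Blnk and Rag1 and lowest in Ebf1, where it stands at 6.75.

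Vpreb1 and Igll1 encode the 2 parts of the surrogate light chain. Vpreb1 stood at 8.54, 7.08 and 7.07 in Ocn+ cells, against 9.20, 5.95, 6.14 and 6.90 in Osx+ cells. All 3 Ocn+ arrays lay above Osx+ replicates 2 to 4, and Osx+ replicate 1 lay above every Ocn+ array. The difference was 0.52 (SE 0.82, limma adjusted p = 0.999) over 7 arrays. Without Osx+ replicate 1 it was 1.23 (SE 0.48), with an unadjusted p of 0.041 and an adjusted p of 0.620 in limma. A further probe set is annotated to both Vpreb1 and Vpreb2 and was not used here.

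The brighter Igll1 probe set, 1420176_x_at, gave 7.09, 6.57 and 6.38 in Ocn+ cells, against 8.80, 6.12, 6.27 and 6.31 in Osx+ cells. It repeated the order of Vpreb1 in part, with the 3 Ocn+ arrays above Osx+ replicates 2 to 4 and Osx+ replicate 1 above all others. Its difference was -0.20 (SE 0.66, limma adjusted p = 0.999), and it was 0.44 (SE 0.22) without Osx+ replicate 1. The other Igll1 probe set, 1420177_at, gave 5.99, 5.61 and 5.92 in Ocn+ cells, against 5.94, 5.49, 5.91 and 5.69 in Osx+ cells. That set did not show the high value in Osx+ replicate 1, and its mean lay under the 25th percentile of all genes. Affymetrix gives the ending x_at to sets in which some probes also match other transcripts, and here which set reads Igll1 more truly was not tested.

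Blnk, the adaptor that links the receptor's kinase to its downstream enzymes, stood at 8.91, 8.24 and 8.39 in Ocn+ cells, against 9.51, 9.10, 7.85 and 7.30 in Osx+ cells. Here Osx+ replicates 1 and 2 both lay above every Ocn+ array and replicates 3 and 4 below, so the Osx+ arrays enclosed the Ocn+ arrays. The difference was 0.07 (SE 0.55, 95% interval -1.21 to 1.36, limma adjusted p = 0.999), and its sign turned when Ocn+ replicate 1 (-0.12), Osx+ replicate 3 (-0.12) or Osx+ replicate 4 (-0.30) was left out.

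Rag1, the recombinase of antigen receptor genes, was dim on every array. It stood at 4.24, 4.16 and 3.89 in Ocn+ cells, against 5.07, 4.27, 4.01 and 4.08 in Osx+ cells. Only Osx+ replicate 1 stood clear of the others, by 0.80 over the next array. The difference was -0.26 (SE 0.28, limma adjusted p = 0.999), and it was -0.02 (SE 0.17) without Osx+ replicate 1. The mean of Rag1 over the arrays lay under the 25th percentile of all genes, as did those of Pax5 and Il7r.

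Pax5, the factor that commits cells to the B lineage, gave 5.77, 5.48 and 5.34 in Ocn+ cells, against 5.54, 5.23, 5.37 and 5.48 in Osx+ cells. It spanned little on these arrays and Osx+ replicate 1 did not lead. Its difference was 0.13 (SE 0.17, 95% interval -0.28 to 0.53, limma adjusted p = 0.999), the narrowest interval of the 9 genes.

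Ebf1, the factor that acts before Pax5, ran opposite to the receptor genes. Its brightest probe set, 1416301_a_at, gave 9.49, 9.86 and 10.22 in Ocn+ cells, against 6.75, 9.97, 10.02 and 9.87 in Osx+ cells. Osx+ replicate 1 minus the mean of the other Osx+ arrays was -3.20, and those 3 lay inside the Ocn+ range. The group difference of 0.70 (SE 0.81, limma adjusted p = 0.999) rested on that array and was -0.10 (SE 0.22) without it. The probe set 1416302_at gave 7.84, 7.73 and 8.27 in Ocn+ cells, against 4.78, 7.46, 7.78 and 7.84 in Osx+ cells. The probe set 1448293_at gave 6.87, 8.25 and 8.29 in Ocn+ cells, against 6.01, 8.28, 7.59 and 8.40 in Osx+ cells. All 3 Ebf1 probe sets were lowest in Osx+ replicate 1, and Ocn+ replicate 1 was the next lowest for 1416301_a_at and 1448293_at. Across the 7 arrays the Pearson correlation of Ebf1 with Cd79a was -0.95 and with Igll1 -0.98. Over the 6 arrays without Osx+ replicate 1 these correlations were -0.97 and -0.80, so the opposite order of Ebf1 and Cd79a did not rest on that array.

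Il7r was the 1 gene of the 9 whose groups did not overlap, where the background over all genes was 6.90%, and 2.53% for genes lower in Ocn+ cells. The probe set 1448575_at gave 3.51, 3.78 and 3.85 in Ocn+ cells, against 3.98, 7.18, 4.76 and 4.71 in Osx+ cells. Ocn+ replicate 3 and Osx+ replicate 1 lay close together on either side of the gap, and Osx+ replicate 2 stood far above all others. The difference was -1.45 (SE 0.71, 95% interval -3.11 to 0.22), with an unadjusted p of 0.0788 and an adjusted p of 0.999 in limma. It was -0.77 without Osx+ replicate 2. The other probe set, 1448576_at, gave 3.76, 3.99 and 3.54 in Ocn+ cells, against 3.66, 4.06, 3.57 and 3.94 in Osx+ cells, and its groups overlapped. With quantile normalization repeated on the chosen probe sets the groups of 1448575_at overlapped too.

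**Figure D2:**
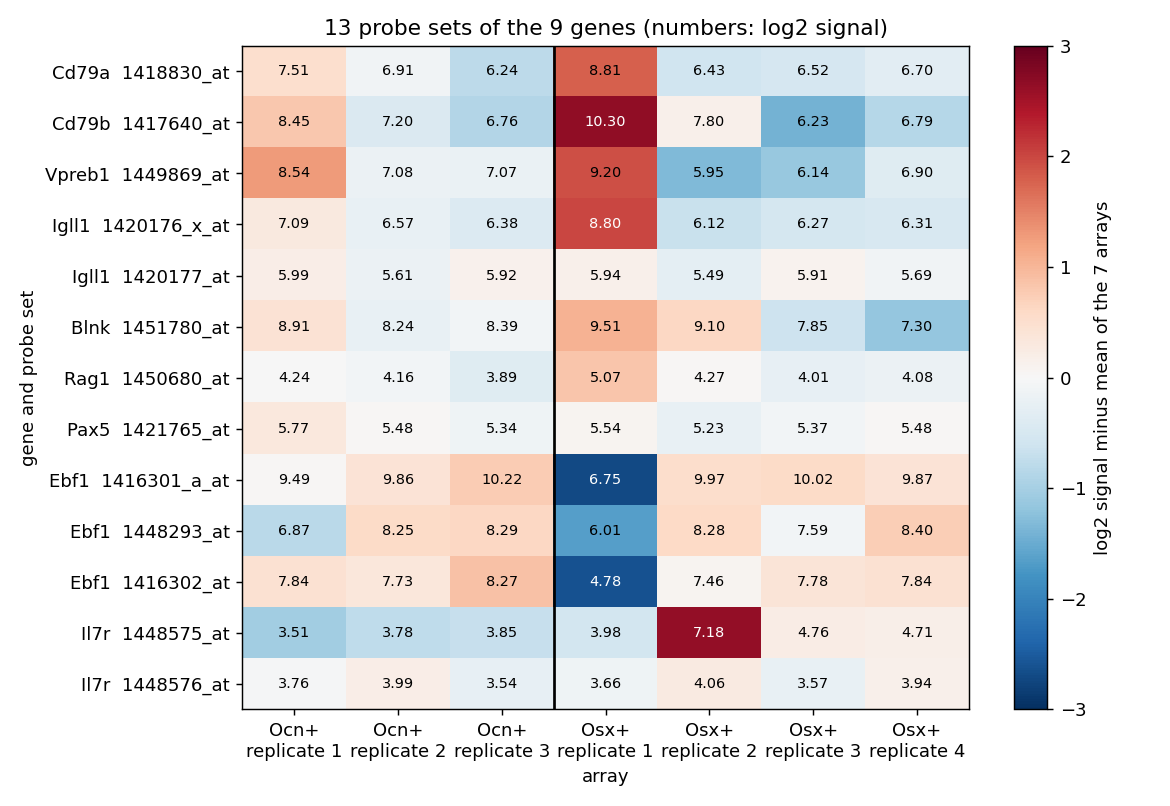
Rows are the 13 probe sets of the 9 genes and columns the 7 arrays, Ocn+ left of the line. Numbers are log2 signals and colour is the signal minus the row's mean over the arrays. The column of Osx+ replicate 1 holds the highest Cd79b value, 10.30, and the lowest value of each Ebf1 probe set, and Il7r 1448575_at is highest, at 7.18, in Osx+ replicate 2.

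Without Osx+ replicate 1 the groups did not overlap for 3 of the 9 genes, where the background was 15.1%. These were Vpreb1 and Igll1, higher in Ocn+ cells (background 9.21%), and Il7r, lower in Ocn+ cells (background 5.86%). In limma 0 of the 9 genes passed without that array, the smallest adjusted p being 0.615, for Il7r. Osx+ replicate 1 was the highest array for 26.0% of all 12393 genes, so it was often highest elsewhere too. It exceeded every other array by more than 1 log2 unit for 3 of the 9 genes (Cd79a, Cd79b and Igll1) and for 1.19% of all genes.

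**Figure D3:**
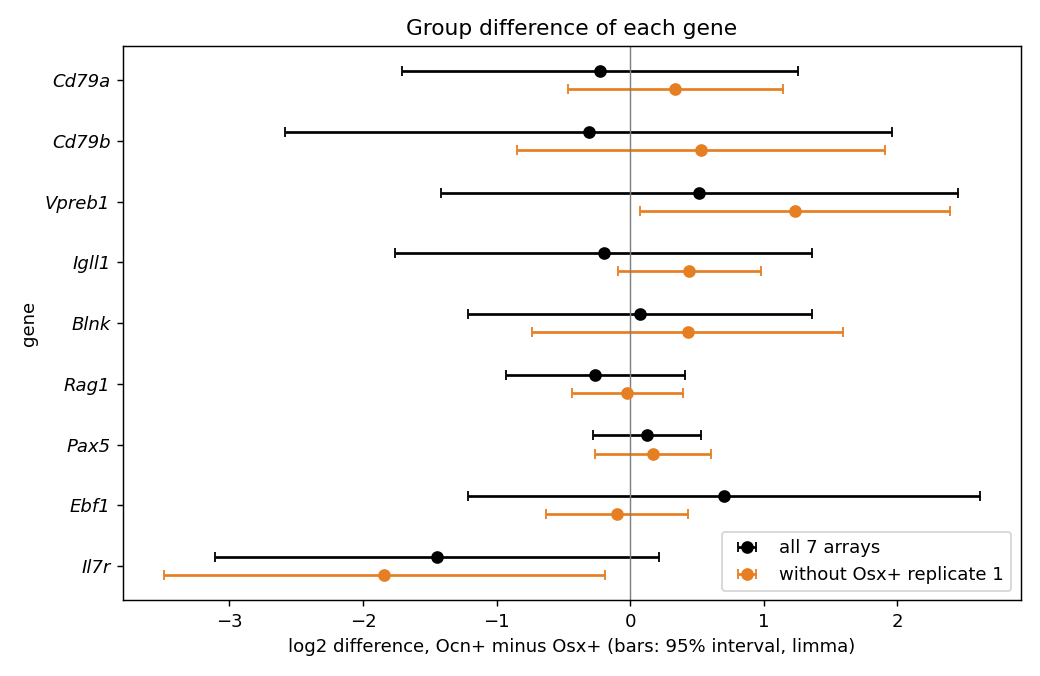
Points are the limma difference in log2 signal, Ocn+ minus Osx+, of each of the 9 genes, and bars the 95% interval, over all 7 arrays (black) and without Osx+ replicate 1 (orange). The points of Cd79a, Cd79b, Igll1 and Ebf1 cross 0 when that array is left out.

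Among the members the highest Pearson correlation over the 7 arrays was that of Cd79a and Igll1, at 0.97, and Cd79a and Cd79b stood at 0.92. Without Osx+ replicate 1 these were 0.90 and 0.68. Cd79a and Pax5 stood at 0.61, and at 0.94 without that array, and Cd79a and Il7r stood at -0.39 and -0.48. The genes whose signal was most like the mean of the 9 centred members were Ehd2 (Pearson r = 0.99), Syngr2 (0.96), Gripap1 (0.96), Asf1b (0.95), Fzd9 (0.95), Chst1 (0.95), Fdps (0.95) and Lst1 (0.94), out of 6195 genes above the median signal. None of them is a usual marker of the B lineage. Fdps is an enzyme of isoprenoid synthesis, Fzd9 a Wnt receptor and Asf1b a histone chaperone. These correlations describe 7 arrays, and a search over that many genes returns high ones.

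Other genes of the B cell program gave no passing member either. Of 20 B cell surface genes 18 were measured, 0 passed in limma in either direction, and 2 had an unadjusted p under 0.05 (5.31% over all genes). Of the 18, 9 were highest in Osx+ replicate 1 (26.0% over all genes). The median difference of that list was -0.13, and 0.03 without Osx+ replicate 1. The groups did not overlap for 2 of 18, both lower in Ocn+ cells, where the share over all genes was 6.90%, and 2.53% for genes lower in Ocn+ cells. Ptprc, the CD45 phosphatase of all leukocytes, was 1 of these, at 5.50, 5.07 and 6.34 in Ocn+ cells, against 7.01, 8.34, 6.55 and 6.41 in Osx+ cells (difference -1.44, SE 0.52, limma adjusted p = 0.898). The other, Cd22, an inhibitory receptor of B cells picked with its values known, stood at 5.48, 4.99 and 5.17 in Ocn+ cells, against 8.01, 5.95, 5.50 and 5.98 in Osx+ cells. Cd22 was highest in the array that led for Cd79a, and Ptprc in the array that led for Il7r. Besides Ptprc, the gene with an unadjusted p under 0.05 in limma was Cd93, which went the other way. It stood at 11.05, 11.77 and 12.49 in Ocn+ cells, against 9.64, 11.19, 11.18 and 10.29 in Osx+ cells. Its difference was 1.20 (SE 0.49, limma adjusted p = 0.935), its groups overlapped, and Osx+ replicate 1 was its lowest array.

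Ms4a1, which encodes the CD20 antigen of later B cells and was picked with its values known, lay between 3.98 and 4.03 in Ocn+ cells and between 3.94 and 4.41 in Osx+ cells. Of 17 immunoglobulin chain names 5 were measured, with 0 passing and 0 at an unadjusted p under 0.05 in limma (5.31% over all genes). Ighm, the constant region of the first heavy chain, stood at 8.49, 7.70 and 7.50 in Ocn+ cells, against 9.93, 8.07, 6.65 and 7.80 in Osx+ cells, again led by Osx+ replicate 1. Vpreb3, picked with its values known, was highest in Ocn+ replicate 1 at 7.57, next in Osx+ replicate 1 at 7.42, and between 5.36 and 5.94 on the other 5 arrays.

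Among 24 measured B lineage transcription factors 0 passed in limma. The unadjusted limma p was under 0.05 for 1 of them (5.31% over all genes). Of the 24, 7 were highest in Osx+ replicate 1, close to the share over all genes of 26.0%. The median difference of the list was -0.10, and 0.01 without Osx+ replicate 1. Gfi1, a repressor shared by B cell and granulocyte precursors, differed by 1.21 (SE 0.42) with a limma adjusted p of 0.888. Spib, an Ets factor of B and plasmacytoid dendritic cells picked with its values known, stood at 6.85, 5.60 and 5.05 in Ocn+ cells, against 8.06, 5.76, 5.42 and 5.80 in Osx+ cells. Of 21 measured genes of B cell receptor signalling 0 passed in limma, with a median difference of 0.11. The unadjusted limma p was under 0.05 for 2 of them (5.31% over all genes). Osx+ replicate 1 was the highest array for 9 of the 21 (26.0% over all genes). The adaptor Shc1 (0.70, SE 0.20) and the repressor Bcl6 (-0.41, SE 0.17) were the members with the smallest p. The 11 measured genes of V(D)J recombination had 0 passing members in limma and 0 at an unadjusted p under 0.05 (5.31% over all genes). Their median difference was -0.04, and 0.02 without Osx+ replicate 1.

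On the growth factor side, 17 genes of interleukin 7 signalling were measured and 0 passed in limma. An unadjusted p under 0.05 in limma was found for 1 (5.31% over all genes). The difference was above 0 for 14 of 17, against 6531 of 12393 over all genes. The median difference was 0.19, against 0.02 over all genes. Stat5b, a transcription factor that the receptor activates, stood at 10.39, 10.36 and 10.31 in Ocn+ cells, against 9.80, 9.91, 9.69 and 9.72 in Osx+ cells (difference 0.57, SE 0.14, limma adjusted p = 0.689). Il7, the ligand itself and picked with its values known, was dim in both groups and averaged 3.72 ± 0.46 over the 3 Ocn+ arrays and 3.99 ± 0.25 over the 4 Osx+ arrays (mean and SD). Among 14 measured genes of stromal support 0 passed in limma, 1 had an unadjusted p under 0.05 (5.31% over all genes), and the median difference was 0.08, against -0.09 without Osx+ replicate 1. Cxcl12, the chemokine that holds B cell precursors in marrow, stood at 12.02, 11.93 and 11.59 in Ocn+ cells, against 10.83, 10.55, 12.07 and 10.99 in Osx+ cells. Of 8 measured lymphoid progenitor markers 0 passed in limma, and 0 were highest in Osx+ replicate 1 (26.0% over all genes). The unadjusted limma p was under 0.05 for 2 of them (5.31% over all genes). These went opposite ways, with a difference of 0.97 (SE 0.28) for Cd34 and -0.55 (SE 0.22) for Ccr9.

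Markers of some other cell types moved with the array that led for the receptor genes. The mean log2 signal of the B lymphoid precursor genes was 7.06 in Ocn+ replicate 1, 7.55 in Osx+ replicate 1 and 6.35 to 6.90 on the other 5 arrays. The mean of 14 erythroid markers was 8.82 in Ocn+ replicate 1, 9.13 in Osx+ replicate 1 and 7.28 to 8.13 on the others. Osx+ replicate 1 was also the highest array for the means of plasma cell (9.60), plasmacytoid dendritic cell (7.92) and natural killer cell markers (5.45). By single gene it led for 7 of 11, 4 of 12 and 5 of 13 of these, against 26.0% of all genes. Klrd1 of the natural killer list, picked with its values known, was 7.45 there and 3.99 to 4.71 on the others. Nkg7 of that list, at 4.49 there, was highest in Ocn+ replicate 1, at 6.52. In the plasmacytoid list Spib led there, at 8.06, and Tlr7, picked with its values known, led in Osx+ replicate 3, at 8.43. The mean of 11 osteoblast markers was 12.76 in Ocn+ replicate 1, 12.06 in Osx+ replicate 1 and 12.63 to 13.27 on the others, so Osx+ replicate 1 was the lowest. The single markers, looked up with their values known, did not all go that way. Osx+ replicate 1 was the lowest array for Mepe (5.52), Phex (7.79), Dmp1 (10.76), Col1a2 (14.98) and Sparc (14.83). It was the highest for Col1a1 (15.05) and Pth1r (13.53), and not the lowest for Sp7, Alpl, Ibsp and Dlx5. Macrophage markers were highest in Osx+ replicate 2, at 11.90, and next in Osx+ replicate 1, at 11.76. Markers of a further pair of cell types lay apart between the groups. The mean of 16 neutrophil markers was 10.02 to 10.38 in Ocn+ cells, against 7.10 to 9.81 in Osx+ cells, and that of 20 endothelial markers was 9.49 to 9.80 in Ocn+ cells, against 6.41 to 9.11 in Osx+ cells. In limma 0 genes of either list passed, and 10 of the 16 and 13 of the 20 had an unadjusted p under 0.05, against 5.31% of all genes. The mean of 16 T cell markers ran from 5.93 to 6.33 over all arrays. It was highest in Ocn+ replicate 1, and 6.18 in Osx+ replicate 1. Ocn+ replicate 1 also led for dendritic cell and class II genes, at 7.89 against 7.73 in Osx+ replicate 1. The same array led for megakaryocyte markers, at 7.79 against 7.50. In bulk RNA of sorted cells, fewer cells of a type and less RNA per cell cannot be told apart.

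**Figure D4:**
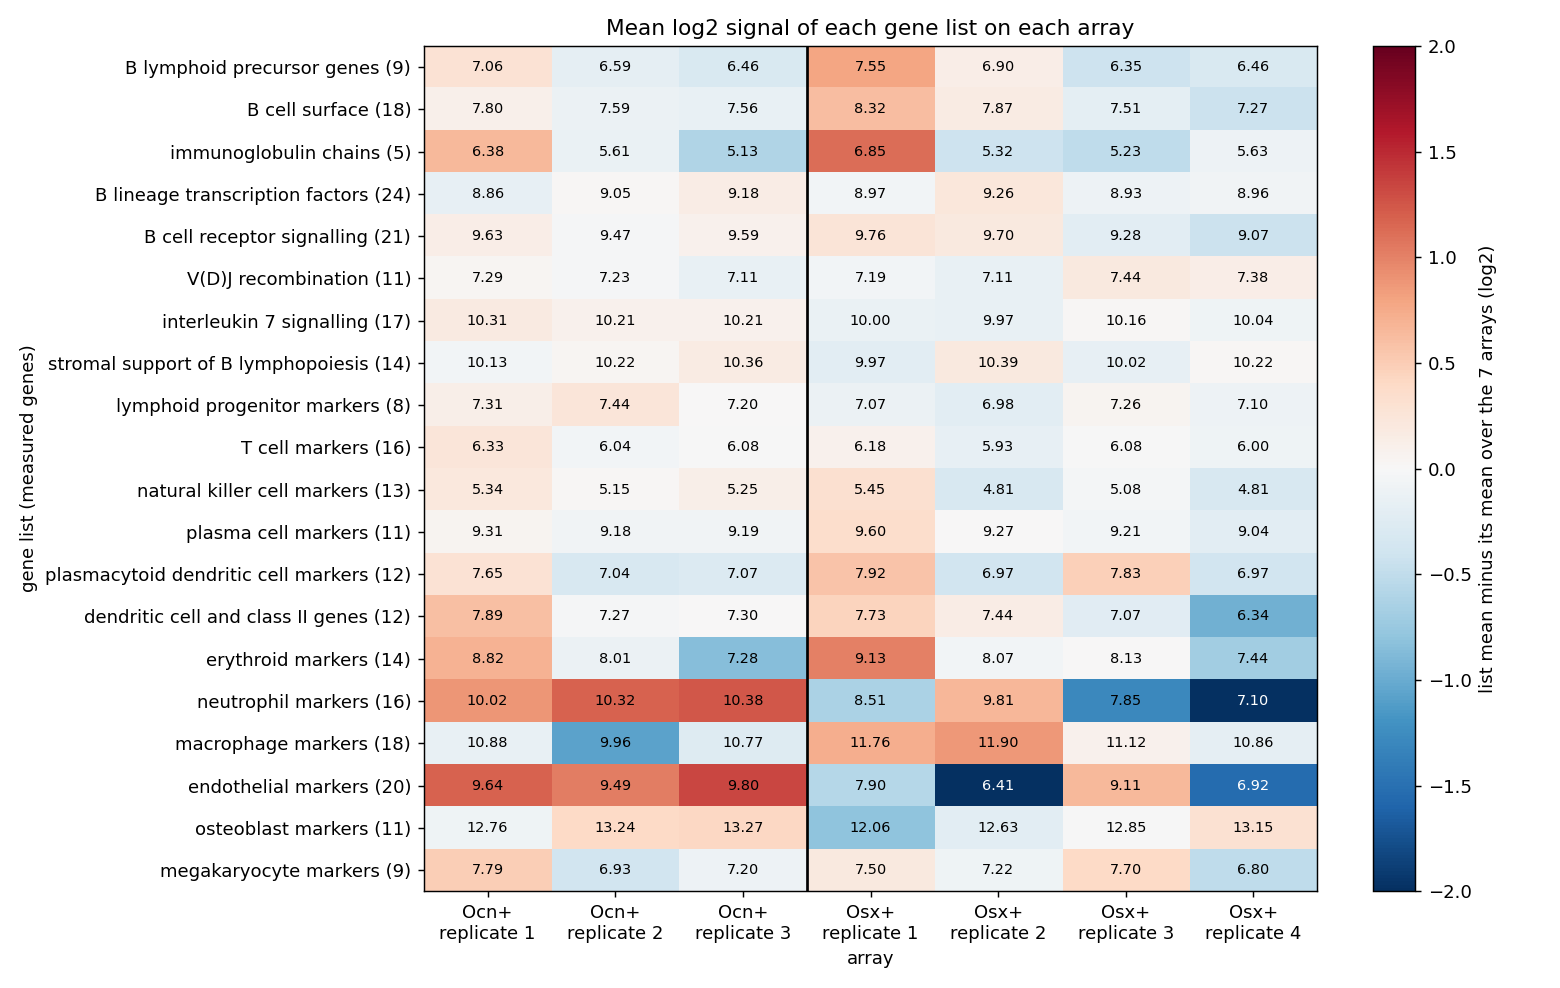
Rows are gene lists with the number of measured genes, and columns the 7 arrays, Ocn+ left of the line. Numbers are the mean log2 signal of the list and colour is that mean minus the row's mean over the arrays. Osx+ replicate 1 is highest for the B lymphoid precursor genes (7.55), B cell surface genes (8.32), immunoglobulin chains (6.85) and B cell receptor signalling (9.76). It is also highest for erythroid (9.13), plasma cell (9.60), plasmacytoid dendritic cell (7.92) and natural killer cell markers (5.45). It is lowest for osteoblast markers (12.06) and stromal support (9.97).

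The arrays differed in other properties as well. The signal of Xist, an RNA of female cells, was 5.47, 12.33 and 12.37 in Ocn+ cells, against 4.87, 12.68, 5.79 and 12.96 in Osx+ cells. Both arrays that led for Cd79a, Cd79b and Vpreb1 were thus low in Xist, and the third low array, Osx+ replicate 3, was the lowest of all for Cd79b. Within the arrays of high Xist signal the groups did not overlap for 3 of the 9 genes, where the background was 55.2%, and within those of low Xist signal for 2 of the 9, where the background was 59.7%. The Gapdh control probe sets at the 3′ end exceeded those at the 5′ end by 0.89, 0.60 and 0.64 log2 units in Ocn+ cells, against 0.89, 0.59, 1.26 and 0.64 in Osx+ cells, a measure that grows with RNA breakdown. It was thus higher on the 3 arrays of low Xist signal. The same measure for Actb was 0.47, 0.48 and 0.46 in Ocn+ cells, against 0.60, 0.50, 0.77 and 0.48 in Osx+ cells, and there Ocn+ replicate 1 did not stand above the arrays of high Xist signal. The part of cell composition, sex and RNA quality in the values of the B lymphoid precursor genes was not tested.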

How the data were processed

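Total RNA of sorted cells was amplified with the NuGEN Ovation V2 system and labelled with biotin, per the labels' protocols. The deposited values are log2 signals, 1 for each probe set on each array. RMA was used by the authors to make them, per the submitters' processing notes: it corrects background, quantile-normalizes and summarizes probes, and its software is not given in the sources used here. Array medians lay between 8.25 and 8.35. Precision is limited by the number of arrays.

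Of 22690 probe sets, 20380 had 1 gene symbol in the platform annotation, and Entrez identifiers gave 20351 of these a current symbol. The probe set of highest mean stood for its gene, giving 12393 genes. The comparison, Ocn+ minus Osx+, was fitted with limma 3.58.1 in R 4.3.3 (lmFit and eBayes, 2-sided, Benjamini-Hochberg over all genes, threshold 0.05). The fit was tested on simulated data. Quoted probe set values are the deposited ones.

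The members and lists were chosen with earlier results of these data known. Named genes were the members, from each other list the 2 genes of smallest p and the gene of highest signal, and the 8 genes of highest correlation with the members' mean, and any other gene is marked as picked with its values known. Of the genes this rule takes from the lists, those that bear on a member are named. The osteocalcin genes were not analysed here. Same-numbered arrays correlated at 0.63, 0.45 and -0.30 in their deviations from the group means, so the numbers were not taken as pairs.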

Additional observations from a re-analysis of the deposited data

Results flagged for a closer look

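In 4 of the 13 probe sets, 1 of the 4 Osx+ arrays lay so far from its nearest neighbour that the gap, divided by the group's range, exceeded Dixon's 95% critical value. Chance gives such a gap in about 1 in 20 groups, and the array was Osx+ replicate 1 each time. It was the highest for Cd79a, at 8.81, and for the Igll1 probe set 1420176_x_at, at 8.80. It was the lowest for the Ebf1 probe sets 1416301_a_at, at 6.75, and 1416302_at, at 4.78. The 4 probe sets were read from the same RNA and are not independent. The Ocn+ group, with 3 arrays, was not tested in this way.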

How the results depend on the processing

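Under every setting tried that gives a test, 0 of the 9 B lymphoid precursor genes passed. These settings were the replicate block, leaving out each array, 2 filters on dim genes, median centring, quantile normalization, array weights, a trended robust prior, 3 probe set rules, the Xist class as a term and, over all genes, a threshold of 0.1. Over all genes limma called 0, with 97 called under array weights, 0 to 3 when 1 array was left out (3 without Osx+ replicate 2 and 3 without Osx+ replicate 3), and 0 with the replicate block. The number of the 9 genes whose groups did not overlap was 1, and 1 to 3 when 1 array was left out. It was 0 with quantile normalization, 0 with the mean of all probe sets of a gene, and 0 with either filter, which removed Il7r. Among high-Xist arrays it was 3, where the share over all genes was 55.2%, and among low-Xist arrays 2, where it was 59.7%. The median difference was 0.70 without genes of mean signal under the median, where Ebf1 alone remained, -0.35 with the replicate block, and -0.38 to 0.34 when 1 array was left out. Signs turned under several settings. The Cd79a difference was 0.042 with array weights and 0.0086 among high-Xist arrays, Igll1 was 0.14 and 0.26 under the same settings, and Cd79b was 0.18 among low-Xist arrays. Blnk was -0.30 with the replicate block, which in effect leaves out the unpaired Osx+ replicate 4. With 1 array left out the difference ran from -0.54 to 0.34 for Cd79a, -0.83 to 0.53 for Cd79b, -0.45 to 0.44 for Igll1, -0.10 to 0.99 for Ebf1 and -0.30 to 0.43 for Blnk. Cd79a was 0.10 and Cd79b 0.045 without Ocn+ replicate 3. Vpreb1, Pax5, Rag1 and Il7r kept their sign under all settings in which they were fitted. The cause of these changes was not tested.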

Other observations

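Genes that followed Ebf1 over the arrays were looked up after its values were seen. Among 6195 genes above the median signal, the most alike were Hbp1 (Pearson r = 0.98 over 7 arrays), Mpp6 (0.98), Pdgfa (0.98), Rida (0.97), Cdc23 (0.97), Anxa1 (0.97), Akap12 (0.97) and Arhgap39 (0.96). Akap12, a scaffold protein of kinase A, stood at 11.29, 11.56 and 11.99 in Ocn+ cells, against 9.16, 11.20, 11.70 and 11.16 in Osx+ cells. Pdgfa, a growth factor of mesenchymal cells, stood at 12.59, 12.69 and 12.72 in Ocn+ cells, against 12.14, 12.68, 12.62 and 12.75 in Osx+ cells. Both were lowest in Osx+ replicate 1.

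Pou2af1, a coactivator of B cells, was high in a pair of Osx+ arrays. It stood at 6.09, 5.25 and 4.68 in Ocn+ cells, against 7.89, 7.99, 4.60 and 6.34 in Osx+ cells. Tnfsf13b, a survival factor for B cells, stood at 7.55, 7.24 and 7.73 in Ocn+ cells, against 8.83, 9.64, 6.84 and 8.67 in Osx+ cells. Osx+ replicate 2 was the highest for both, as it was for Il7r and for the macrophage markers, and both genes were picked with their values known.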
